A study of Mus musculus with 6 samples.

Results

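Retinoic acid, the active form of vitamin A, is made and removed inside the cells that use it, and 8 genes of this pathway were followed here through the cell classes of the mouse left ventricle. They were Dhrs3 (ENSMUSG00000066026), Cyp26b1 (ENSMUSG00000063415), Aldh1a1 (ENSMUSG00000053279), Aldh1a2 (ENSMUSG00000013584), Aldh1a3 (ENSMUSG00000015134), Rarb (ENSMUSG00000017491), Rxra (ENSMUSG00000015846) and Stra6 (ENSMUSG00000032327). They were taken by symbol from the 33696 genes listed for each library, and all 8 were found. The set was chosen by the measured levels of Dhrs3 and Cyp26b1 in cell classes of these libraries, so their values are given as a description, with fold differences and standard errors and with no p-value. The other 6 genes were read from the same fits across all genes, with the adjusted p-value of edgeR's quasi-likelihood test. All 8 genes and the wider gene lists were chosen with earlier results of these data known. Their p-values are therefore not those of genes picked blind to the data.

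The samples were single-nucleus RNA libraries made from frozen left ventricle of male mice aged 12 weeks. WT-CD were wild-type littermates on the control diet. R403Q-CD were mice heterozygous for the Myh6 R403Q change (given as R404Q by mouse numbering), a germline missense mutation of the cardiac myosin heavy chain that models hypertrophic cardiomyopathy (HCM), on the same control diet. R403Q-EMPA had the same genotype and ate a diet holding 0.15 mg/g of empagliflozin, a sodium-glucose cotransporter 2 inhibitor, for a daily dose of about 15 mg/kg. Diets began at 9 to 10 weeks of age. The labels also state a length of treatment that these ages do not allow, so it is not given here. The mutation is carried by every cell of these mice, so the control-diet comparison concerns the genotype, and no wild-type mice on empagliflozin were analysed here. Each group held 2 libraries. The labels do not say whether they came from separate animals, so the p-values measure only the spread between these libraries.

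In the pathway, retinol is taken into cells through the receptor Stra6 and oxidised to retinal. Dhrs3 reduces retinal back to retinol, whereas the aldehyde dehydrogenases Aldh1a1, Aldh1a2 and Aldh1a3 oxidise it further to retinoic acid. Retinoic acid binds nuclear receptors of the Rar family, which pair with Rxr partners on DNA, and enzymes of the Cyp26 family break it down. Dhrs3, Cyp26 genes and Rarb are textbook target genes of retinoic acid itself, and in the heart the epicardium is a known source of it.

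Because Rarb and the Cyp26 genes are known targets, promoter windows of Rarb, Cyp26b1 and Dhrs3 are shown. That of Cyp26a1, which was close to undetected in these libraries, is shown beside them. Windows came from RefSeq (build GRCm38.p6), from 250 bases before to 50 bases after each gene's start, and 7 of the 8 genes had one. The stretches below are the 100 bases before the start, 5′ to 3′ on the gene's strand, with capitals for receptor half-sites. The half-sites searched on both strands were the consensus hexamer AGGTCA, the related hexamer AGTTCA, another reading GGGTCA, and lastly one reading GGTTCA. The capitals of Cyp26a1 are AGTTCA read on the other strand.
Rarb, chr14:16575477-16575576, minus strand: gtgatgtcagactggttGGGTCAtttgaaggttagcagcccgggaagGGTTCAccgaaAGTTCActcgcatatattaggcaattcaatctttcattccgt
Cyp26a1, chr19:37697708-37697807, plus strand: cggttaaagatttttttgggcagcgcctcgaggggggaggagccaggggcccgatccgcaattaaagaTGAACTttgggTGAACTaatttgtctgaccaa
Cyp26b1, chr6:84593811-84593910, minus strand: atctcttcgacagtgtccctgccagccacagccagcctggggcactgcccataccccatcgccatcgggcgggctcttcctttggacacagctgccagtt
Dhrs3, chr4:144892727-144892826, plus strand: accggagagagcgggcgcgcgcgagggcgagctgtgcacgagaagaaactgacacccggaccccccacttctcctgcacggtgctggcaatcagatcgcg

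Rarb carried 3 half-sites in this stretch, of which the last pair formed the direct repeat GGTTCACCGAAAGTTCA with 5 bases between its hexamers. It began 53 bases before the start. Cyp26a1, another retinoic acid-degrading enzyme, carried a repeat of the same spacing on the opposite strand. Cyp26b1 and Dhrs3 showed no half-site in the stretches printed. A repeat with 5 bases between hexamers was found in 32 of 32851 mouse windows (0.0974%), and among 43 windowed genes of a wider retinoid list it was found in Rarb and Cyp26a1. Single half-sites were common, at 43.7% of windows. A match describes letters in this window, and neither binding there nor a part in the values that follow was tested.

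Of 69249 barcodes, 45889 nuclei were kept, and the libraries held 31787308 to 45397128 unique molecular identifiers (UMIs, counts of captured RNA molecules) with a median of 2655 to 4066 UMIs a nucleus. The nuclei fell into 30 clusters and 12 classes named from marker genes, 10 of which had enough nuclei in every library to be tested, from 228 smooth muscle-like to 14128 fibroblast-like nuclei. Summed cardiomyocyte markers reached 56777 to 70516 CPM (UMIs per 1000000 UMIs of the class) in cardiomyocyte-like nuclei and lay between 1075 and 18560 CPM in the other classes tested, the highest in lymphoid-like nuclei of R403Q-EMPA 2. Slc5a2, the target of empagliflozin, had 2 to 6 UMIs per library. In cardiomyocyte-like nuclei the library R403Q-EMPA 1 stood apart by a sum of atrial markers that includes Nppa, at 1495 CPM against 38.2 to 366 CPM elsewhere. It did not stand apart by the share of these nuclei with at least 2 UMIs of the other atrial markers. That share was 1.39%, against 0.537 to 1.44% elsewhere. The library WT-CD 1 stood apart by fibroblast markers, at 347 CPM in cardiomyocyte-like nuclei against 106 to 149 CPM elsewhere and at 860.2 CPM in endothelial-like nuclei against 299 to 336 CPM, and it had the lowest cardiomyocyte sum of the cardiomyocyte-like nuclei. Heat-shock genes were highest in both R403Q-EMPA libraries, for instance 893 and 1000.4 CPM in endothelial-like nuclei against 257 to 342 CPM in the others. The part of these differences in the results below was not tested. Pairs of libraries shared 23 to 56 of their barcodes. As 3′ UMIs are not per length, levels are compared within a gene and not between genes.

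Dhrs3, which returns retinal to retinol, was highest in R403Q-CD cardiomyocyte-like nuclei and lowest in those of R403Q-EMPA. It measured 37.1 and 59.8 CPM in WT-CD, 103 and 85.0 CPM in R403Q-CD, and 31.0 and 32.5 CPM in R403Q-EMPA. The 3 groups did not overlap. Between 314 and 1031 UMIs stood behind each value. Of the 14195 genes tested in the class, 17.8% were higher without overlap in R403Q-CD than in WT-CD. Lower without overlap in R403Q-EMPA were 21.5% against R403Q-CD and 19.5% against WT-CD. The group mean was 48.5 ± 16.1 CPM (SD, n = 2) for WT-CD libraries, 94.0 ± 12.7 CPM for R403Q-CD and 31.8 ± 1.08 CPM for R403Q-EMPA. R403Q-CD was thus 1.94-fold above WT-CD, with a fitted log2 difference of 0.93 (SE 0.25). R403Q-EMPA was 2.96-fold below R403Q-CD, at -1.61 (SE 0.25), and 1.53-fold below WT-CD, at -0.68 (SE 0.25). The WT-CD libraries differed from each other, and the fitted value of R403Q-EMPA against WT-CD went from -1.07 without WT-CD 1 to -0.17 without WT-CD 2. R403Q-CD against WT-CD went from 0.56 to 1.44 in the same 2 omissions. Mitochondrially encoded RNA of these nuclei was 11279 and 9142 CPM in WT-CD, 8718 and 9418 CPM in R403Q-CD, and 12270 and 13219 CPM in R403Q-EMPA, highest where Dhrs3 was lowest, and its part was not tested. Without R403Q-EMPA 1, the library with the highest atrial marker sum, the Dhrs3 difference from R403Q-CD was -1.54 (SE 0.33).

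**Figure D1:**
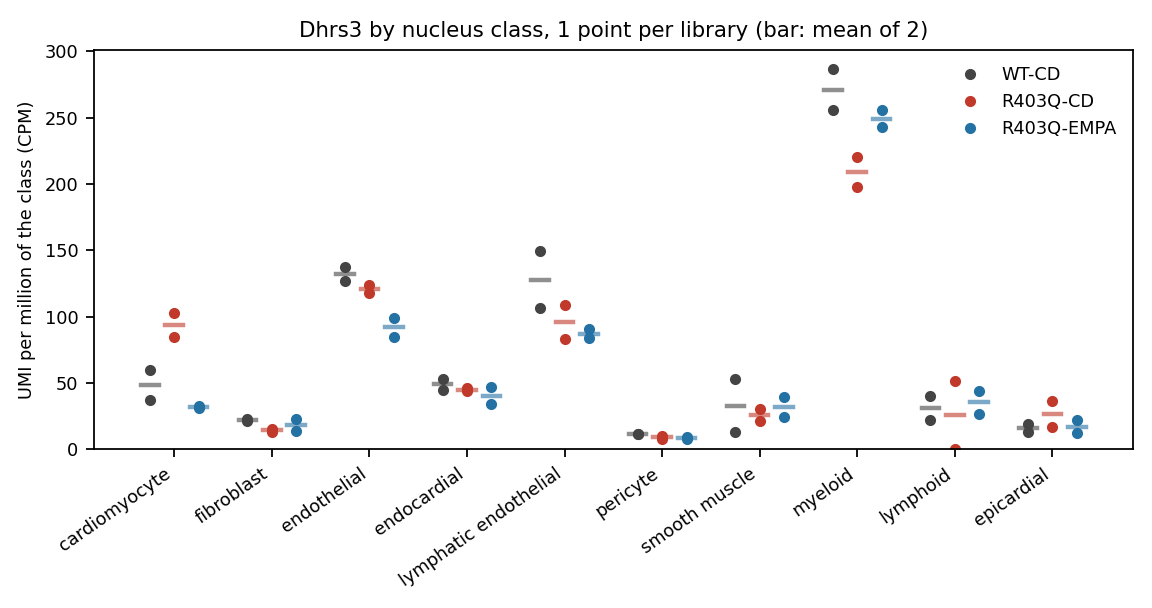
Dhrs3 level (CPM of the class, vertical axis) in each library, by cell class, with points for libraries and a short line for the mean of each group of 2. In cardiomyocyte-like nuclei the R403Q-CD libraries lie at 103 and 85.0 CPM and the R403Q-EMPA libraries at 31.0 and 32.5 CPM.

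The cardiomyocyte-like nuclei fell into clusters whose shares differed between libraries, so Dhrs3 was also read within them. The largest cluster made up 90.6 and 87.6% of cardiomyocyte-like nuclei of WT-CD libraries, against 78.0 and 59.7% for R403Q-CD and 30.3 and 56.0% for R403Q-EMPA. There, Dhrs3 was at 37.8 and 60.7 CPM in WT-CD, 105 and 91.6 CPM in R403Q-CD, and 30.9 and 35.8 CPM in R403Q-EMPA, again without overlap. A second cluster, led by Ryr3 and by the stretch-responsive natriuretic peptide gene Nppb, made up 4.21 and 3.25%, 8.74 and 17.2%, and 47.1 and 32.7% in the same order. Its Dhrs3 level was 29.5 and 40.5 CPM in WT-CD, 76.0 and 61.2 CPM in R403Q-CD, and 32.0 and 27.7 CPM in R403Q-EMPA. In that cluster the R403Q-EMPA and WT-CD ranges overlapped, with WT-CD resting on 12 and 14 UMIs. Both R403Q-CD values lay above those of the other groups in both of these clusters. The 6 smaller clusters held 994 nuclei together and few Dhrs3 UMIs, and in one of them WT-CD 2, at 89.7 CPM on 5 UMIs, exceeded R403Q-CD 1, at 76.3 CPM on 7 UMIs. Nuclei were clustered without the retinoid genes, so Dhrs3 did not place nuclei in these clusters.

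The share of cardiomyocyte-like nuclei with at least 1 Dhrs3 UMI gave the same order. After thinning each nucleus to 500 UMIs, it was 2.24% (Wilson 95% interval 1.52 to 3.28%) and 2.82% (1.84 to 4.32%) in WT-CD. It was 5.72% (4.42 to 7.38%) and 4.12% (3.04 to 5.57%) in R403Q-CD, and 1.26% (0.81 to 1.96%) and 1.40% (0.92 to 2.11%) in R403Q-EMPA. These intervals cover counting error only. Before thinning the shares were 22.2 and 38.0%, 51.7 and 47.2%, and 20.6 and 17.7%. Pericyte-like nuclei, the class with the lowest Dhrs3 level, had thinned shares of 0.38 to 0.78%, at median depths of 2005 to 3392 UMIs against 6903 to 12124 UMIs in cardiomyocyte-like nuclei. Macrophage markers summed to 62.1 to 86.0 CPM in cardiomyocyte-like nuclei against 17449 to 24162 CPM in myeloid-like nuclei, where Dhrs3 was highest.

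Across the other classes, the order of mean Dhrs3 level was myeloid-like (243 ± 31.0 CPM, SD over 6 libraries), endothelial-like (115 ± 19.5 CPM), lymphatic endothelial-like (104 ± 25.0 CPM), cardiomyocyte-like (58.1 ± 30.2 CPM) and endocardial-like (44.8 ± 6.17 CPM). Smooth muscle-like, lymphoid-like, epicardial-like and fibroblast-like nuclei averaged between 18.4 and 30.7 CPM, and pericyte-like nuclei 9.69 ± 1.75 CPM. Endothelial-like and lymphatic endothelial-like levels did not differ beyond their spread, nor did cardiomyocyte-like and endocardial-like levels. Smooth muscle-like, lymphoid-like and epicardial-like values rested on 22 to 32 UMIs over all libraries.

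In vascular, stromal and myeloid classes the R403Q-CD libraries did not lie above WT-CD as they did in cardiomyocyte-like nuclei. In endothelial-like nuclei it was 138 and 127 CPM in WT-CD, 124 and 118 CPM in R403Q-CD, and 84.5 and 99.2 CPM in R403Q-EMPA. The 3 groups were in descending order and did not overlap, with fitted differences of -0.52 (SE 0.14) for R403Q-EMPA against WT-CD and -0.43 (SE 0.14) against R403Q-CD. Of the genes tested in the class, 8.49% were lower in both R403Q groups than in WT-CD without overlap. Endocardial markers of these nuclei were 1325 and 1311 CPM, 1161 and 1250 CPM, and 1134 and 1066 CPM in the same order. Lymphoid markers were 66.1 and 52.2 CPM, 50.4 and 49.9 CPM, and 11.8 and 19.8 CPM, and the part of either list was not tested. In fibroblast-like nuclei Dhrs3 was 23.2 and 21.4 CPM in WT-CD, 13.3 and 15.7 CPM in R403Q-CD, and 23.1 and 14.0 CPM in R403Q-EMPA, where R403Q-EMPA 1 lay within the WT-CD range and R403Q-EMPA 2 within that of R403Q-CD. In myeloid-like nuclei it was 256 and 287 CPM, 220.3 and 198 CPM, and 256 and 243 CPM, so that R403Q-CD was the lowest group in that class. Over all nuclei of a library Dhrs3 was 57.6 and 64.3 CPM in WT-CD, 76.8 and 68.8 CPM in R403Q-CD, and 52.5 and 43.4 CPM in R403Q-EMPA.

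Aldh1a1, the most widely expressed of the retinal-oxidising enzymes here, was highest in fibroblast-like nuclei among the classes tested. It measured 700.0 and 954 CPM in WT-CD, 1129 and 1205 CPM in R403Q-CD, and 579 and 704 CPM in R403Q-EMPA, from 47819 UMIs in all. The R403Q-CD libraries were above all others, and the WT-CD and R403Q-EMPA ranges overlapped. Of the 15063 genes tested in the class, 15.8% were higher without overlap in R403Q-CD than in WT-CD. Lower without overlap in R403Q-EMPA than in R403Q-CD were 21.9%. Schwann markers in these nuclei were also highest in R403Q-CD, at 938 and 917 CPM against 846 and 859 CPM in WT-CD and 634 and 807 CPM in R403Q-EMPA, and mitochondrially encoded RNA was lowest there, at 18844.5 and 19845 CPM against 22116 to 30977 CPM, and the part of either was not tested. R403Q-CD against WT-CD gave a log2 difference of 0.49 (SE 0.21, edgeR adjusted p = 1.00), and R403Q-EMPA against R403Q-CD gave -0.90 (SE 0.21, edgeR adjusted p = 0.123). Neither passed the test in edgeR. DESeq2 called the latter difference (adjusted p = 0.00214), and without R403Q-EMPA 1 the edgeR value was -0.75 (adjusted p = 0.616). Without WT-CD 1 or WT-CD 2, which enter only the shared estimate of spread, edgeR called it at -0.91 (adjusted p = 0.0244 and 0.0241).

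Each fibroblast-like cluster had its highest Aldh1a1 levels in R403Q-CD. In the cluster with the highest level they were 1041 and 1379 CPM in WT-CD, 1438 and 1532 CPM in R403Q-CD, and 935 and 976 CPM in R403Q-EMPA. In the cluster led by Cilp and Postn, matrix genes of activated fibroblasts, they were 328 and 334 CPM, 598 and 568 CPM, and 416 and 449 CPM. That cluster, with the lowest level of the 4, made up 26.9 and 5.59% of fibroblast-like nuclei in R403Q-EMPA and 1.01 to 2.48% in the other libraries. Its part in the lower fibroblast-like total of R403Q-EMPA was not tested.

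**Figure D2:**
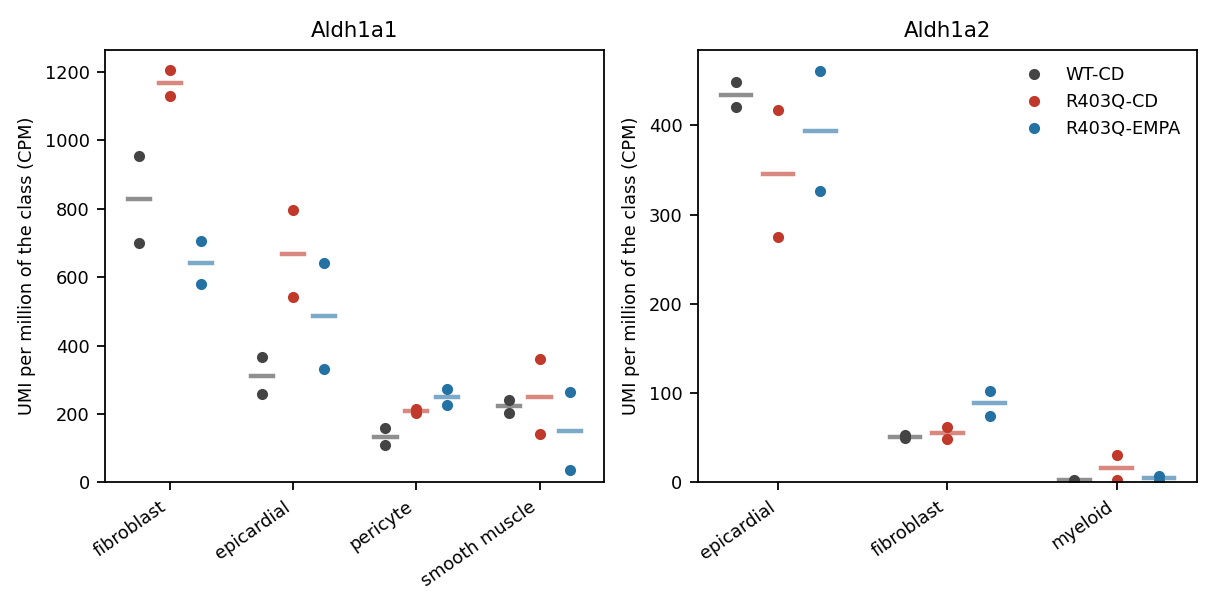
Levels (CPM of the class) of the retinoic acid-forming genes Aldh1a1 and Aldh1a2 in each library of the 3 groups, in the classes with the highest levels. Points are libraries and short lines are group means; in fibroblast-like nuclei Aldh1a1 lies at 1129 and 1205 CPM in R403Q-CD and at 579 and 704 CPM in R403Q-EMPA, whereas in pericyte-like nuclei R403Q-EMPA is the highest group.

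In pericyte-like nuclei, the mural cells of capillaries, Aldh1a1 was higher in both R403Q groups than in WT-CD. It measured 109.7 and 158 CPM in WT-CD, 204 and 214 CPM in R403Q-CD, and 272 and 227 CPM in R403Q-EMPA, without overlap between the 3 groups. Of the genes tested in the class, 6.34% were higher in both R403Q groups than in WT-CD without overlap. For R403Q-EMPA against R403Q-CD the share was 23.6%. R403Q-EMPA rose against WT-CD by a log2 difference of 0.87 (SE 0.18, edgeR adjusted p = 0.0216), where 1.07% of 11915 genes tested in the class were called higher. R403Q-CD against WT-CD gave 0.65 (SE 0.18, edgeR adjusted p = 1.00) and was not called, with 0.37 (edgeR adjusted p = 0.726) without WT-CD 1 and a call at 0.998 (edgeR adjusted p = 0.00203) without WT-CD 2. The call of R403Q-EMPA was lost without R403Q-EMPA 1 (0.76, edgeR adjusted p = 0.198) and when either R403Q-CD library was left out. Summed fibroblast markers in the same nuclei were 2734 and 2245 CPM in WT-CD, 2141 and 2195 CPM in R403Q-CD, and 1886 and 1893 CPM in R403Q-EMPA, the opposite order to Aldh1a1. Pericyte markers summed to 16087.5 and 15592 CPM, 15116 and 15252 CPM, and 13785 and 13178.5 CPM in the same order, lowest in R403Q-EMPA, and their part was not tested.

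Other classes held Aldh1a1 at lower or less certain levels. In epicardial-like nuclei it was 258 and 366 CPM in WT-CD, 542 and 795 CPM in R403Q-CD, and 332 and 642 CPM in R403Q-EMPA. R403Q-CD against WT-CD there was 1.11 (SE 0.31, edgeR adjusted p = 0.410), not called. Leaving out each library in turn, it ranged from 0.79 to 1.38. Smooth muscle-like values spread from 36.4 to 361 CPM. Cardiomyocyte-like nuclei were at 2.36 to 4.86 CPM. Over all 10 classes tested, the mean Aldh1a1 level was highest in fibroblast-like nuclei (879 ± 256 CPM, SD over 6 libraries), then in epicardial-like (489 ± 206 CPM), smooth muscle-like (208 ± 111 CPM) and pericyte-like nuclei (197 ± 56.5 CPM), and the last pair did not differ beyond its spread. Schwann-like nuclei, too few to be tested, had a mean of 867 ± 210.1 CPM, close to the fibroblast-like mean, from 174 UMIs. Aldh1a7, a close paralogue that could share reads with Aldh1a1, had at most 0.1 CPM over all nuclei of any library.

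Aldh1a2, the epicardial retinal dehydrogenase of heart development, marked epicardial-like nuclei. It was 420.1 and 448 CPM in WT-CD, 417 and 274 CPM in R403Q-CD, and 461 and 326 CPM in R403Q-EMPA, with overlap of R403Q-EMPA with both other groups. In fibroblast-like nuclei it was 49.5 and 52.8 CPM in WT-CD, 62.1 and 48.6 CPM in R403Q-CD, and 102 and 74.7 CPM in R403Q-EMPA, both R403Q-EMPA libraries being above the rest. Of the genes tested in the class, 30.8% were higher without overlap in R403Q-EMPA than in R403Q-CD, and 23.1% than in WT-CD. The log2 differences of R403Q-EMPA were 0.63 (SE 0.18, edgeR adjusted p = 0.206) against R403Q-CD and 0.75 (SE 0.18, edgeR adjusted p = 0.102) against WT-CD, neither called. DESeq2 called the second (adjusted p = 0.0323). Epicardial markers in fibroblast-like nuclei summed to 35.8 to 39.5 CPM in every library. In myeloid-like nuclei a single library, R403Q-CD 1, reached 30.8 CPM against 1.52 to 7.68 CPM in the other 5, and 46 of its 48 UMIs lay in 1 cluster led by Cd244a and the monocyte receptor gene Ccr2. All 48 came from 0.903% of the 443 myeloid-like nuclei of that library, which is 4 nuclei.

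Aldh1a3, the third retinal dehydrogenase, was sparse. In endothelial-like nuclei it was 7.71 and 5.80 CPM in WT-CD, 5.86 and 6.54 CPM in R403Q-CD, and 3.32 and 8.35 CPM in R403Q-EMPA, and the groups overlapped. In fibroblast-like nuclei it was 0.754 to 2.43 CPM in 5 libraries and 9.05 CPM in R403Q-EMPA 1. In endocardial-like nuclei, where it was not tested, it was 4.75 and 9.49 CPM in R403Q-EMPA and 0 to 2.04 CPM in the other 4 libraries, and 28 of its 35 UMIs there came from R403Q-EMPA.

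Cyp26b1, which degrades retinoic acid, was a gene of endothelial-like nuclei and was lower in both R403Q groups than in WT-CD. It measured 122 and 65.4 CPM in WT-CD, 17.4 and 31.7 CPM in R403Q-CD, and 6.75 and 17.7 CPM in R403Q-EMPA. All 4 R403Q libraries lay below both WT-CD libraries, and the 2 R403Q groups overlapped at 17.4 to 17.7 CPM. Of the 14054 genes tested in the class, 8.49% lay below WT-CD in both R403Q groups in the same way. WT-CD libraries held 508 and 485 UMIs, R403Q-CD 119 and 228, and R403Q-EMPA 63 and 51. The mean was 93.9 ± 40.3 CPM (SD, n = 2) for WT-CD, 24.6 ± 10.1 CPM for R403Q-CD and 12.2 ± 7.78 CPM for R403Q-EMPA. R403Q-CD was 3.82-fold below WT-CD (log2 -1.86, SE 0.41) and R403Q-EMPA was 7.67-fold below it (log2 -3.11, SE 0.47). Against R403Q-CD, R403Q-EMPA gave -1.25 (SE 0.48), which became -0.49 without R403Q-EMPA 1.

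**Figure D3:**
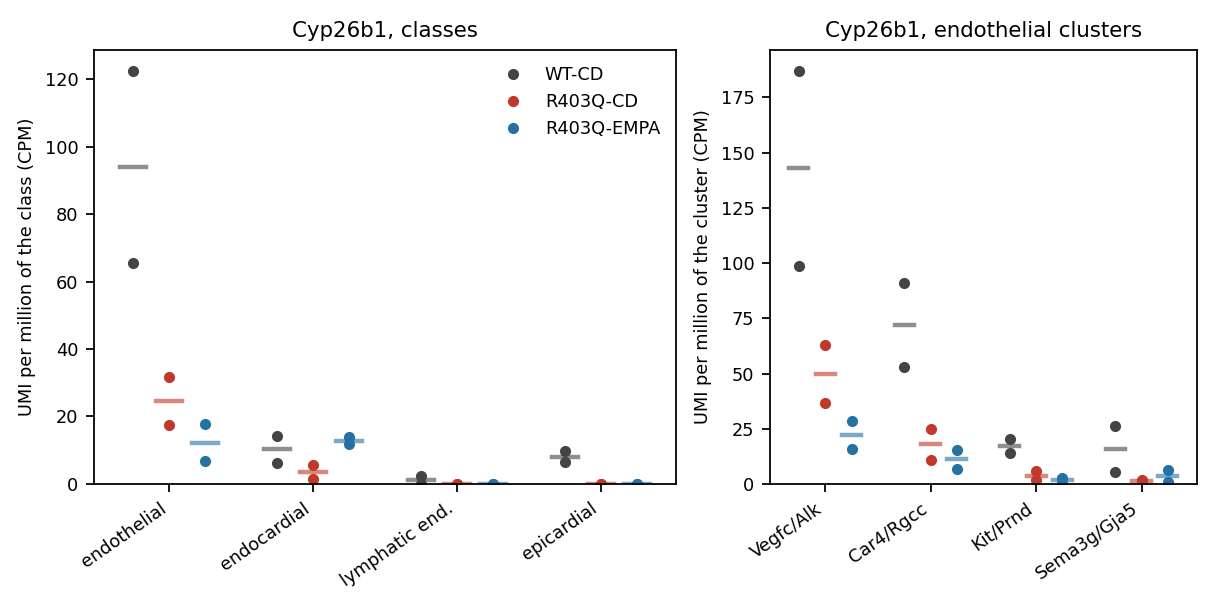
Cyp26b1 level (CPM) in 4 classes (left) and in 4 of the 5 clusters of endothelial-like nuclei, named by leading genes (right), with a point for each library and a short line for the mean of each group. In the cluster with the highest level the WT-CD libraries lie at 187 and 98.6 CPM and every R403Q library at or below 63.1 CPM.

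Within the endothelial-like nuclei, Cyp26b1 was highest in a cluster led by Col13a1, Alk and Vegfc, in which Cyp26b1, not used for clustering, was itself among the leading genes. There it was 187 and 98.6 CPM in WT-CD, 36.7 and 63.1 CPM in R403Q-CD, and 15.8 and 28.7 CPM in R403Q-EMPA, without overlap. In the capillary cluster led by Car4 and Rgcc it was 91.0 and 52.8 CPM, 10.8 and 25.1 CPM, and 6.997 and 15.4 CPM. A cluster led by Kit and Prnd held 20.5 and 14.2 CPM, 5.80 and 1.86 CPM, and 0.644 and 2.84 CPM. The arterial cluster led by Sema3g and Gja5 held 26.1 and 5.48 CPM, 1.62 and 1.34 CPM, and 0.79 and 6.17 CPM. The remaining cluster, of 197 nuclei led by the proliferation genes Mki67 and Top2a, held 3 Cyp26b1 UMIs in all. In the first 3 of these clusters both WT-CD libraries were above all R403Q libraries, and in the arterial cluster R403Q-EMPA 2 exceeded WT-CD 2. The Col13a1 cluster itself made up 44.9 and 42.6% of WT-CD endothelial-like nuclei, 30.6 and 30.5% of those of R403Q-CD, and 29.2 and 36.4% of those of R403Q-EMPA.

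The share of endothelial-like nuclei with a Cyp26b1 UMI, thinned to 500 UMIs, was 5.18 and 2.96% for WT-CD, 0.82 and 1.28% for R403Q-CD, and 0.49 and 1.18% for R403Q-EMPA. Unthinned it was 18.4 and 13.7%, 4.04 and 7.47%, and 1.88 and 3.22%. Myeloid-like nuclei, with little Cyp26b1, had a thinned share of 0.492% in WT-CD 1 and 0 in the other 5 libraries, where the Wilson upper limits were 0.860 to 1.43%. Of the 4 R403Q shares, 3 lay below the limit of their own library, and that of R403Q-CD 2, at 1.28%, lay above its limit of 1.09%. Unthinned, the myeloid-like shares were 0 to 0.984%, at median depths of 2405 to 3718 UMIs against 2115 to 3423 UMIs in endothelial-like nuclei, and every endothelial-like share was above them. Summed endothelial markers of the endothelial-like nuclei lay between 12987 and 13468 CPM in all 6 libraries. Endocardial markers there were 1325 and 1311 CPM in WT-CD, 1161 and 1250 CPM in R403Q-CD, and 1134 and 1066 CPM in R403Q-EMPA. Lymphoid markers were 66.1 and 52.2 CPM, 50.4 and 49.9 CPM, and 11.8 and 19.8 CPM in the same order. Cardiomyocyte markers were 1830 and 1542 CPM in WT-CD and 2388 to 2576 CPM in the R403Q libraries. The part of these lists in the Cyp26b1 values was not tested.

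Endocardial-like nuclei, the lining of the chambers, had another order for Cyp26b1. It was 14.3 and 6.34 CPM in WT-CD, 1.57 and 5.67 CPM in R403Q-CD, and 13.9 and 11.9 CPM in R403Q-EMPA, on 2 to 35 UMIs per library. R403Q-EMPA was 3.56-fold above R403Q-CD there (log2 1.61, SE 0.52) and overlapped WT-CD. In fibroblast-like nuclei it was near the limit of detection, at 1.53 and 1.26 CPM in WT-CD and 0.2 to 0.854 CPM in the R403Q libraries, on 1 to 17 UMIs each, and epicardial-like nuclei held 2 UMIs in each WT-CD library and 0 in the others. The other members of the family were close to undetected, with 7 UMIs of Cyp26a1 and 97 UMIs of Cyp26c1 over all libraries.

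Rarb, the receptor gene that is itself induced by retinoic acid, was lower in both R403Q groups than in WT-CD in 6 of the 8 classes in which it was tested. In these 6 classes all 4 R403Q libraries lay below both WT-CD libraries, and among all genes tested in the 8 classes 6.98% of gene and class pairs showed such a separation. The classes share the same libraries and are not independent. The share of genes separated in as many classes at the same time was not counted. The exceptions were cardiomyocyte-like nuclei and the low-level myeloid-like nuclei. R403Q-EMPA against WT-CD passed the test in endocardial-like and fibroblast-like nuclei.

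In endocardial-like nuclei Rarb was 63.7 and 67.4 CPM in WT-CD, 33.7 and 32.8 CPM in R403Q-CD, and 23.8 and 34.98 CPM in R403Q-EMPA. R403Q-EMPA fell against WT-CD by 1.22 on the log2 scale (SE 0.22, edgeR adjusted p = 0.0174), where 0.799% of 11521 genes were called lower. R403Q-CD against WT-CD was -0.995 (SE 0.22, edgeR adjusted p = 0.999), not called. Endocardial markers of these nuclei summed to 17760 and 18708 CPM in WT-CD, 19841 and 18190.0 CPM in R403Q-CD, and 12053 and 14686 CPM in R403Q-EMPA. Lymphatic endothelial markers, of the class with far more Rarb, were 283 and 177 CPM, 209 and 252 CPM, and 388 and 359.9 CPM there. The part of either list in the endocardial-like values of Rarb and Cyp26b1 was not tested. In fibroblast-like nuclei Rarb was 48.1 and 41.5 CPM in WT-CD, 26.6 and 30.1 CPM in R403Q-CD, and 18.9 and 27.2 CPM in R403Q-EMPA. R403Q-EMPA fell against WT-CD by 1.01 (SE 0.19, edgeR adjusted p = 0.0442), where 0.604% of 15063 genes were called lower, and R403Q-CD gave -0.66 (SE 0.18), not called. Without R403Q-EMPA 1 both calls were lost, at -0.93 (edgeR adjusted p = 0.184) and -0.74 (edgeR adjusted p = 0.285), and the fibroblast-like call was also lost without either WT-CD or either R403Q-CD library.

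**Figure D4:**
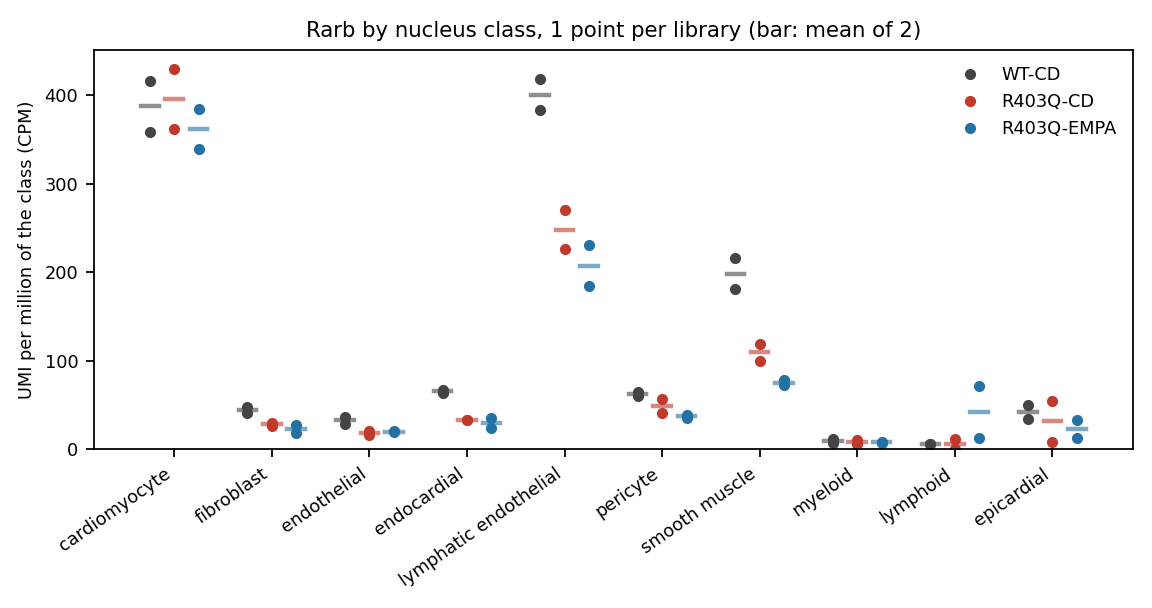
Rarb level (CPM of the class) in each library of the 3 groups, by cell class. Points are libraries and short lines are group means; the WT-CD points lie above the R403Q points in endocardial-like nuclei (63.7 and 67.4 CPM against at most 34.98 CPM) and among them in cardiomyocyte-like nuclei.

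The remaining classes gave lower values with no call. In lymphatic endothelial-like nuclei, the class with the second highest mean Rarb level, it was 384 and 418 CPM in WT-CD, 226 and 271 CPM in R403Q-CD, and 231 and 184 CPM in R403Q-EMPA. Its differences from WT-CD were -0.69 (SE 0.20) for R403Q-CD and -0.93 (SE 0.20, edgeR adjusted p = 0.131) for R403Q-EMPA. Pericyte markers of these nuclei were 431 and 426 CPM in WT-CD, 324 and 389 CPM in R403Q-CD, and 303 and 263 CPM in R403Q-EMPA. Smooth muscle markers were 416 and 408 CPM, 377 and 342 CPM, and 333 and 318 CPM, and the part of either list was not tested. In smooth muscle-like nuclei Rarb was 181 and 216 CPM, 100.2 and 119 CPM, and 78.3 and 72.7 CPM, with -1.40 (SE 0.40, edgeR adjusted p = 0.191) for R403Q-EMPA against WT-CD. Smooth muscle markers of these nuclei had the same group order as Rarb, at 14564.5 and 16071 CPM in WT-CD, 11235.5 and 11563 CPM in R403Q-CD, and 9905 and 10679 CPM in R403Q-EMPA. Pericyte markers there were 3457 and 4018 CPM in WT-CD and 4279 to 5182 CPM in the R403Q libraries, and the part of either list was not tested. In pericyte-like nuclei it was 64.8 and 59.9 CPM, 41.2 and 56.4 CPM, and 39.2 and 35.2 CPM, with -0.76 (SE 0.21, edgeR adjusted p = 0.0998). In endothelial-like nuclei it was 36.9 and 28.6 CPM, 20.9 and 16.5 CPM, and 19.1 and 20.2 CPM, with -0.73 (SE 0.18, edgeR adjusted p = 0.140). In none of these did the R403Q libraries reach the WT-CD range.

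Cardiomyocyte-like nuclei had the highest mean Rarb level (382 ± 35.1 CPM, SD over 6 libraries) and gave 359 and 416 CPM in WT-CD, 362 and 429.7 CPM in R403Q-CD, and 339.6 and 385 CPM in R403Q-EMPA. All 3 groups overlapped, and the log2 differences were between -0.17 and 0.01, each with an SE of 0.20. Summed over all nuclei of a library, Rarb was 139.8 and 142 CPM in WT-CD, 133 and 163 CPM in R403Q-CD, and 146 and 203 CPM in R403Q-EMPA, so the lower values within classes did not appear in the library totals. Cardiomyocyte markers summed to 1177 and 1086 CPM in WT-CD fibroblast-like nuclei against 1667 to 1777 CPM in the R403Q groups. In 5 of the 6 classes with lower Rarb, namely the fibroblast-like, endothelial-like, endocardial-like, lymphatic endothelial-like and pericyte-like, this sum was higher in every R403Q library than in both WT-CD libraries, for instance 2157 to 2540 CPM against 1344 and 1584 CPM in pericyte-like nuclei. In smooth muscle-like nuclei the sums overlapped, at 2094 and 2650 CPM in WT-CD and 1883 to 3207 CPM in the R403Q groups. Their part in the Rarb values was not tested. Within the 3 largest fibroblast-like clusters, WT-CD Rarb values were 37.4 to 52.5 CPM and R403Q values 13.0 to 32.1 CPM. In the fourth, the Cilp and Postn cluster, they overlapped, at 54.6 and 53.9 CPM for WT-CD, 59.8 and 31.0 CPM for R403Q-CD, and 20.4 and 47.1 CPM for R403Q-EMPA, on 7 to 48 UMIs each.

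Rxra, the partner receptor, was detected in all 10 classes. Mean levels over 6 libraries ran from 16.5 CPM in lymphoid-like to 52.9 CPM in myeloid-like nuclei. In cardiomyocyte-like nuclei it was 15.1 and 23.1 CPM in WT-CD, 21.2 and 18.5 CPM in R403Q-CD, and 18.9 and 14.3 CPM in R403Q-EMPA. In endothelial-like nuclei it was 43.6 and 50.6 CPM, 53.7 and 41.9 CPM, and 53.8 and 52.2 CPM. The groups overlapped in the first class, and in the second both R403Q-EMPA libraries lay above WT-CD, as for 18.6% of the genes tested there. In lymphatic endothelial-like nuclei both R403Q groups lay above WT-CD, at 29.0 and 33.2 CPM in WT-CD, 48.3 and 37.1 CPM in R403Q-CD, and 34.5 and 54.4 CPM in R403Q-EMPA, on 18 to 30 UMIs each, where 6.22% of the 8902 genes tested in the class did so. In fibroblast-like nuclei R403Q-CD, at 37.5 and 39.1 CPM, lay just above WT-CD, at 32.6 and 37.3 CPM, as for 15.8% of the genes tested there. Rxra was not called in any of the 7 classes in which it was tested. Stra6, the retinol uptake receptor, was close to 0 outside endocardial-like nuclei, which held 112 of its 138 UMIs. There it was 8.66 and 13.6 CPM in WT-CD, 5.48 and 7.69 CPM in R403Q-CD, and 12.7 and 4.15 CPM in R403Q-EMPA, which overlapped both other groups.

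**Figure D5:**
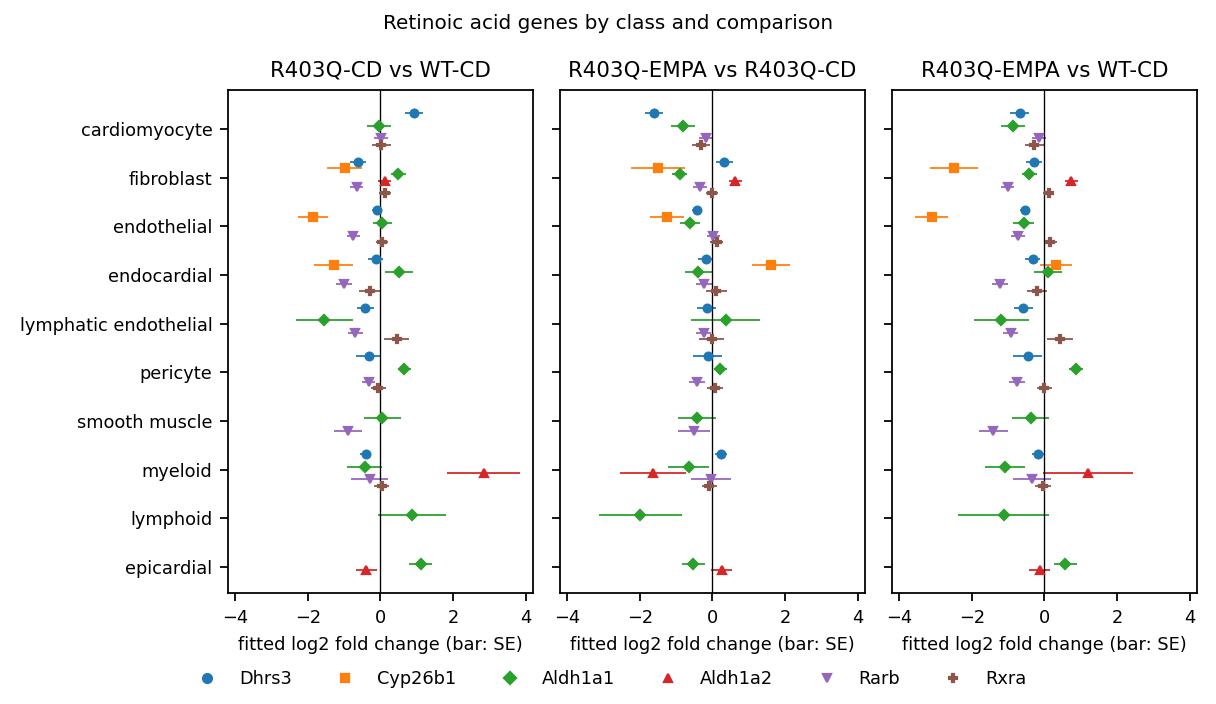
Fitted log2 differences (points, with bars of 1 SE) of 6 of the retinoic acid genes in each class where they were tested, for the 3 comparisons. Dhrs3 in cardiomyocyte-like nuclei lies at 0.93 for R403Q-CD against WT-CD and at -1.61 for R403Q-EMPA against R403Q-CD, and Rarb lies below 0 against WT-CD in endocardial-like nuclei in both R403Q groups.

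The wider pathway was read from 58 retinoid genes in 10 roles, all present in the gene list. Leaving out Dhrs3 and Cyp26b1, they gave 266 tests of a gene in a class per comparison. R403Q-CD against WT-CD gave 0 calls by edgeR and 0 by DESeq2, where 0.0232% of all 99173 tests were called. At an unadjusted p under 0.05 there were 24 tests (9.02%), 12 higher and 12 lower, against 4.29% of all tests. R403Q-EMPA against R403Q-CD gave 1 call, lower, where 0.318% of all tests were called, and 20 tests (7.52%) at that unadjusted level against 9.70% of all. R403Q-EMPA against WT-CD gave 5 calls, 1 higher and 4 lower, where 1.42% of all tests were called, and 37 tests (13.9%) at the unadjusted level against 12.7% of all. The calls were thus 5 of 266 against that background, and the median log2 differences of the 266 tests were -0.00, -0.02 and -0.02 in the 3 comparisons. R403Q-CD serves as the reference of one comparison and WT-CD of both others, so the comparisons are not independent.

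By role, the calls of R403Q-EMPA against WT-CD lay with the receptors (Rarb in 2 classes, of 40 tests), retinoic acid formation (Aldh1a1, of 15), ester storage and release (Lipe, of 23) and textbook target genes (Meis1, of 49). Uptake and binding (23 tests), retinol oxidation (27), retinal reduction without Dhrs3 (26), carotene cleavage (2) and cofactors (60) gave no call in any comparison. Rdh10, the main retinol-oxidising enzyme, was 22.5 to 25.5 CPM over all nuclei in every library.

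Meis1, a homeobox target gene, fell in endocardial-like nuclei of R403Q-EMPA. It was 365 and 334 CPM in WT-CD, 351 and 309.6 CPM in R403Q-CD, and 179 and 195 CPM in R403Q-EMPA. The log2 differences of R403Q-EMPA were -0.84 (SE 0.15, edgeR adjusted p = 0.0365) against R403Q-CD, where 0.182% of genes were called lower, and -0.93 (SE 0.15, edgeR adjusted p = 0.0105) against WT-CD. Without R403Q-EMPA 1 these became -0.77 (edgeR adjusted p = 0.318) and -0.86 (edgeR adjusted p = 0.128), and the first call was also lost without R403Q-EMPA 2 or either R403Q-CD library. In pericyte-like nuclei Meis1 gave -0.73 (SE 0.19, edgeR adjusted p = 0.119) against R403Q-CD and was not called. Fibroblast-like (-0.58), endothelial-like (-0.55), lymphatic endothelial-like (-0.68) and myeloid-like nuclei (-0.53) were also lower against R403Q-CD, none called. Of the classes tested, only the epicardial-like gave a value above 0 (0.37). The lower endocardial marker sums of R403Q-EMPA stand beside the endocardial-like result too, and their part was not tested.

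Lipe, the hormone-sensitive lipase that can also release retinol from its esters, fell in cardiomyocyte-like nuclei of R403Q-EMPA. It was 28.5 and 20.5 CPM in WT-CD, 17.1 and 19.5 CPM in R403Q-CD, and 10.9 and 15.5 CPM in R403Q-EMPA. The difference from WT-CD was -0.93 (SE 0.22, edgeR adjusted p = 0.0420), where 2.47% of 14195 genes were called lower. Within the largest cardiomyocyte-like cluster it was -0.67 (edgeR adjusted p = 0.120). The call was lost without R403Q-EMPA 1 (-0.66, edgeR adjusted p = 0.257), without WT-CD 1 (-0.79, edgeR adjusted p = 0.0896) and without either R403Q-CD library.

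Among genes with one of the 3 smallest p-values of the list in a class and comparison, Rarb appeared in 11 of 30 cases, always lower, Aldh1a1 in 10, Meis1 in 9, Lpl in 7 and Nr2f2 in 6. Not every gene was tested in every case, and Rarb was tested in 8 classes. Adh1, an alcohol dehydrogenase, was 337 and 233 CPM in WT-CD endocardial-like nuclei, 157 and 217 CPM in R403Q-CD, and 90.7 and 171 CPM in R403Q-EMPA (log2 -1.16 against WT-CD, SE 0.27, edgeR adjusted p = 0.0553), short of a call. Nr2f2, an orphan receptor gene of veins, was 167 and 146 CPM in WT-CD endothelial-like nuclei, 125 and 135 CPM in R403Q-CD, and 103 and 106 CPM in R403Q-EMPA (log2 -0.57 against WT-CD, SE 0.12, edgeR adjusted p = 0.0991). In smooth muscle-like nuclei the direction was the other, at 203 and 216 CPM in WT-CD, 401 and 316 CPM in R403Q-CD, and 391.5 and 521 CPM in R403Q-EMPA (log2 1.06 against WT-CD, SE 0.32, edgeR adjusted p = 0.253). Lpl, lipoprotein lipase, was 146 and 97.7 CPM in WT-CD pericyte-like nuclei, 152 and 146 CPM in R403Q-CD, and 195 and 179 CPM in R403Q-EMPA (log2 0.61 against WT-CD, SE 0.17, edgeR adjusted p = 0.0885). Meis2 in endothelial-like nuclei was 48.7 and 50.4 CPM in WT-CD, 28.3 and 29.5 CPM in R403Q-CD (log2 -0.74, SE 0.15, edgeR adjusted p = 1.00), and 43.1 and 34.8 CPM in R403Q-EMPA (log2 0.41 against R403Q-CD, SE 0.15, edgeR adjusted p = 0.437). These did not pass the test. Lipe, Nrip1 and Rara appeared in 5 cases each, Aldh1a2 and Meis2 in 4, Fabp5 and Rbp7 in 3, Adh1, Ncoa1 and Rarres2 in 2, and Adh5, Ncoa2, Ncor1, Nr2f1, Rarg, Rdh11, Rdh5 and Rxrg in 1.

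Genes whose levels followed each member over the 60 sums of a library and a class were ranked by Pearson's r of log2(CPM + 1), as a description in which sums of 1 library share their depth. Those nearest Dhrs3 were Cyp2ab1 (0.76), Ltc4s (0.75) and Tnfrsf11a (0.73). Nearest Cyp26b1 were Gm15663 (0.83), Ripply3 (0.83) and Tspan11 (0.81), and nearest Aldh1a1 were Ddr2 (0.93), Pde1a (0.92) and Adgrl3 (0.90). Aldh1a2 was followed most closely by Dact2 (0.92), Gpr39 (0.92) and Tmem119 (0.91). Rarb was followed by Nr3c2 (0.82), Asph (0.81) and Dip2c (0.80), and Rxra by Acvr2b (0.84), Dock1 (0.78) and Trim3 (0.77).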

How the data were processed

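Nuclei from 50 mg of fresh frozen left ventricle were sequenced by 10x 3′ chemistry. The deposited matrices hold UMI counts per gene and barcode, which the authors made with Cell Ranger 8.0.1 on GRCm39 (submitters' processing notes). Whether introns were counted is not given in the sources used here. Nuclei with at least 500 UMIs, 300 genes and at most 5% mitochondrial UMIs were kept after removal of called doublets (3.93 to 6.72% a library), clustered with scanpy 1.11.5 without the retinoid genes (2000 variable genes, resolution 1) and named from fixed markers, 3 of which had to be met. The marker scoring and a sub-clustering step were chosen after looking at the data, and 2 clusters (73 nuclei) stayed without a class.

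Counts were summed per library and class. CPM is the UMIs of a gene per 1000000 UMIs of the class. All 6 libraries entered one edgeR 4.0.16 quasi-likelihood fit per class (R 4.3.3, TMM, low-count filter), with Benjamini-Hochberg adjustment over all genes of a class and comparison and a threshold of 0.05. With 2 libraries against 2, an exact permutation test of a single value cannot pass this threshold. On simulated 2-fold changes the fit recovered 53.8 to 57.9% of changed genes in cardiomyocyte-like nuclei, 57.9 to 63.1% in fibroblast-like nuclei and 47.2 to 52.3% in endocardial-like nuclei. The members and gene lists were chosen with earlier results of these data known. Named genes were the 8 members, list genes that were called or had one of the 3 smallest p-values in a class and comparison, and the 3 genes most like each member with a class mean of at least 10 CPM. Some list genes that this rule names are not reported here. Alternatives included DESeq2 1.42.0, other scaling, filters and resolutions, doublets kept and each library left out. Proteins were not analysed here.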

Additional observations from a re-analysis of the deposited data

Results flagged for a closer look

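Dhrs3 and Aldh1a1 had classes in which every library of one group moved one way against the reference group and classes in which every library moved the other way. These differences between classes were not tested, and they are given where every library held at least 10 UMIs of the gene. Over all genes tested, 12.4 to 30.9% were higher and 13.5 to 22.6% lower without overlap in a class and comparison. On fewer UMIs Cyp26b1 did the same in R403Q-EMPA against R403Q-CD, higher in endocardial-like and lower in fibroblast-like nuclei. So did Aldh1a1 in R403Q-CD against WT-CD, higher in epicardial-like, fibroblast-like and pericyte-like nuclei and lower in lymphatic endothelial-like nuclei. The values are log2 ratios of mean CPM. For Dhrs3 in R403Q-CD against WT-CD, cardiomyocyte-like nuclei gave 0.96 and fibroblast-like nuclei -0.62. For Dhrs3 in R403Q-EMPA against R403Q-CD, myeloid-like nuclei gave 0.25 and cardiomyocyte-like nuclei -1.57. For Aldh1a1 in R403Q-EMPA against R403Q-CD, pericyte-like nuclei gave 0.26 and fibroblast-like nuclei -0.86. For Aldh1a1 in R403Q-EMPA against WT-CD, pericyte-like nuclei gave 0.90 and cardiomyocyte-like nuclei -0.80, the latter at 2.36 to 4.86 CPM.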

How the results depend on the processing

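No paired analysis was possible because the replicate numbers were given in accession order and pair nothing. The Dhrs3 differences in cardiomyocyte-like nuclei and the Cyp26b1 differences in endothelial-like nuclei kept their direction in every alternative tried. Leaving out each library in turn, Dhrs3 ranged from 0.56 to 1.44 (R403Q-CD against WT-CD), -1.76 to -1.45 (R403Q-EMPA against R403Q-CD) and -1.07 to -0.17 (R403Q-EMPA against WT-CD), and Cyp26b1 from -2.36 to -1.44, -1.92 to -0.49 and -3.78 to -2.35. In the cluster led by Ryr3 and Nppb alone, an alternative chosen after seeing the data, Dhrs3 gave -1.19 for R403Q-EMPA against R403Q-CD and -0.22 against WT-CD; the cause was not tested. R403Q-EMPA against WT-CD lost its call, by edgeR's quasi-likelihood test, in these settings. For Rarb in endocardial-like nuclei they were doublets kept (-0.98, adjusted p = 0.0647) and only the groups compared (-1.20, adjusted p = 0.0610), with -1.50 to -0.93 when leaving out libraries. For Rarb in fibroblast-like nuclei they were no mitochondrial filter (-1.02, adjusted p = 0.0507) and only the groups compared (-1.003, adjusted p = 0.108), with -1.30 to -0.74. For Aldh1a1 in pericyte-like nuclei they were doublets kept (0.63, adjusted p = 0.148) and only the groups compared (0.87, adjusted p = 0.0847), with 0.59 to 1.22. Calls of the retinoid list over 10 classes for R403Q-CD against WT-CD, 0 in the main fit, became 4 with no filter on low counts, 1 with no mitochondrial filter and 0 to 2 when leaving out libraries. For R403Q-EMPA against R403Q-CD, with 1 call, they became 2 by DESeq2, 0 with doublets kept, 10 with no filter on low counts, 0 with no mitochondrial filter, 5 with only the groups compared and 0 to 5 when leaving out libraries. For R403Q-EMPA against WT-CD, with 5 calls, they became 3 with doublets kept, 18 with no filter on low counts, 1 with only the groups compared and 0 to 11 when leaving out libraries, 0 of them without R403Q-EMPA 1. Thinned to 1000 UMIs, the mean Dhrs3 shares of cardiomyocyte-like nuclei were 4.68% (WT-CD), 8.63% (R403Q-CD) and 2.83% (R403Q-EMPA), and not thinned 30.1, 49.5 and 19.2%. The Cyp26b1 shares of endothelial-like nuclei were 7.69% in WT-CD and 2.34% in R403Q-CD at 1000 UMIs, and 16.1, 5.76 and 2.55% not thinned. A single result reversed, Aldh1a2 in myeloid-like nuclei for R403Q-CD against WT-CD, from 2.85 to -0.033 without R403Q-CD 1, with -0.033 to 3.70 over all omissions. Depth limits Stra6, Aldh1a3, Cyp26a1 and every gene in smooth muscle-like, lymphoid-like and epicardial-like nuclei.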
